A study of Mus musculus with 53 samples.

Results

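Translation initiation and elongation factors are the proteins that load ribosomes onto messenger RNA and move them along it. Their messenger RNAs were followed here in single T1 pre-HSCs, the type 1 precursors of hematopoietic stem cells, taken from the aorta-gonad-mesonephros region of mouse embryos at embryonic day 11. Members were all listed genes whose symbol begins with Eif or Eef, which gave 62 of the 14833 genes in the table. Eif1a, which stands among the first 24 rows out of alphabetical order, was left out, as were Eif2s3x, Eif2s3y and pseudogene names. The gamma subunit of eIF2 is therefore not described.

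The series held 53 samples and concerns long non-coding RNAs in blood stem cell development, among them the imprinted H19, whose differentially methylated region (DMR) the genotypes name. The KO group was 12 cells labelled with genotype mH19 delta_DMR/+ (cells 1 to 12). The control group, called wildtype in the labels, carried the genotype mH19 flDMR/+, and so had an allele named flDMR; it had 10 cells (13 to 22). Both groups shared stage, tissue and labelled cell type, and each cell was made into its own template-switching library with an ERCC spike-in. The sources used here do not give the driver of the deletion, the strain, the sex or the number of embryos. Adult stem cells and methylation libraries of the series were not used here.

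Initiation starts when eIF2, carrying GTP and the initiator tRNA, joins the small ribosomal subunit together with eIF1, eIF1A, eIF5 and the large scaffold eIF3. The cap-binding complex eIF4F brings the messenger RNA, eIF5B joins the large subunit, and eEF1 and eEF2 then drive each round of elongation. Adult stem cells of the blood system are known for a low and tightly held rate of protein synthesis, to which eIF2 phosphorylation and the inhibitors of eIF4E have been linked. The rate in the embryonic cells used here was not measured.

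Several of these genes are known for a terminal oligopyrimidine tract, a C at the first transcribed base followed by a run of C or T, through which mTORC1 sets their translation. RefSeq promoters (build GRCm38.p6) were found for 49 of the 62 members. They were searched on the transcript strand for a C followed by at least 4 bases that are C or T, with that C within 5 bases of the annotated start. The C could lie inside a longer run, so a run marked from the first printed base may begin further upstream. The run stood in 13 members, 26.5% of those matched, against 23.8% of the 9843 listed genes with a promoter and 18.3% of all 32851 promoters. A gene counted when any of its promoters held the run, so the share of promoters is not a like measure. Among genes with 1 promoter the run stood in 26.2% of members and 20.3% of listed genes. Among genes that passed the expression filter described below, it stood in 18.2% of members and 24.5% of all genes. The 25 bases from 5 before to 20 after the start are shown for the most abundant elongation factor, 2 eIF3 subunits and the eIF4F scaffold, which held the run (capitals), and for 3 abundant members without it. The positions are Eef1a1 chr9:78481705-78481729 (minus strand), Eif3f chr7:108934410-108934434 (plus), Eif3l chr15:79075218-79075242 (plus), Eif4g1 chr16:20672722-20672746 (plus), Eif1 chr11:100319944-100319968 (plus), Eef1b2 chr1:63176826-63176850 (plus) and Eif2s2 chr2:154892887-154892911 (minus).
Eef1a1: CCCTCTTCCCgagggtgggggagaa
Eif3f: gCTCTCTCTCTTTCTCggcaagatg
Eif3l: CTTCTTCCgctctctcccacgggct
Eif4g1: gctccgCCCTCTgcgccggtcacgt
Eif1: cacaggggcggctatataagtgaat
Eef1b2: gttccgccggaagtagccgaggcct
Eif2s2: tggctttactgtacgcctgcgcttt
Among the 49 members with a promoter, the run did not mark the abundant ones. Eef1d, Eef1g, Eif3h and Eif6 are among the members that could not be searched. The search used annotated starts, which need not be the first transcribed base, so a member without the run here may still have the tract. Of the 13 with it, 6 passed the expression filter described below, and the middle member had a median of 0.00237 RPKM over cells. Of the 36 without it, 27 passed and the middle member had a median of 33.6 RPKM. When the run was allowed to begin within 20 bases, 22 members held it (44.9%), against 54.9% of the listed genes.

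Values are RPKM (reads scaled to transcript length and to library size), so levels can be set beside each other per length; read totals are unknown. A gene counted as detected in a cell at 1 RPKM or more. KO cells had 1517 to 8408 genes detected (median 3172) and wildtype cells 2067 to 5716 (median 4176). Wildtype cell 19 was left out. Over the 512 rows around the members its values followed the other cells at a rank correlation of -0.057 as deposited and of 0.692 when moved by 1 row, while all 21 other cells matched best unmoved. H19 was at 0 to 186 RPKM in KO cells (median 28.1) and at 231 to 1261 in the 9 wildtype cells (median 477), with no overlap. Of 10 pre-HSC and endothelial surface markers, KO cells had 1 to 9 detected (median 4.5; summed level 2.03 to 1468 RPKM) and wildtype cells 2 to 8 (median 7; 4.88 to 989 RPKM). Cdh5 was detected in 7 of 12 and 7 of 9 cells, and Ptprc, the pan-leukocyte marker, in 1 cell of each group. Of 9 mesenchymal markers, 0 to 7 were detected per KO cell (summed level 0.0285 to 2022 RPKM) and 0 to 5 per wildtype cell (0.943 to 315). Acta2 was detected in 8 of 12 and 5 of 9 cells (up to 1013 and 315 RPKM), Col1a1 in 4 and 1, and Pdgfra in no cell. Of 7 erythroid markers, 0 to 2 were detected per cell in either group (summed level 0 to 148 RPKM in KO and 0 to 239 in wildtype cells). Of 5 macrophage markers, 0 to 2 were detected per KO cell (0 to 700 RPKM) and 0 or 1 per wildtype cell (0.00168 to 1951). Lyz2 was detected in 6 of 12 and 6 of 9 cells (up to 700 and 1951 RPKM), and C1qb in no cell. The part of these markers in the differences below was not tested.

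No embryo, litter or sort is named, so each genotype is a single sample here and its cells are not replicates. Differences are therefore descriptions, with no test and no p-value. A difference is the mean of log2(RPKM + 1) over KO cells minus that over wildtype cells, a scale that understates folds of low genes. It is called large at 1 or more in size. SDs are over cells, and intervals of detection shares are exact Clopper-Pearson 95% intervals that cover counting error only. For a count of 0 the limit was set at 3 cells of the total in place of an exact interval, a share of up to 14.3% among 21 cells, 25.0% among 12 and 33.3% among 9.

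Members were detected more often than the listed genes at large. A gene was compared between genotypes when 50% or more of the KO cells or of the wildtype cells had it detected, which held for 43 of the 62 members (69.4%) and for 26.1% of all listed genes. Of these 43, 38 passed in both groups, Eif1ad and Eif3j2 only through KO cells, and Eif3j1, Eif2b3 and Eif4enif1 only through wildtype cells; those 5 had to be detected in a larger share of the group that let them pass. Eef1a1, Eef1b2, Eef1g, Eif2s2 and Eif5a were detected in every one of the 21 cells (8.06% of members, against 1.70% of all genes). At the other end, the brain and muscle elongation factor Eef1a2, the oocyte cap-binding Eif4e1b and the argonaute-like Eif2c5 were detected in no cell.

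**Figure D1:**
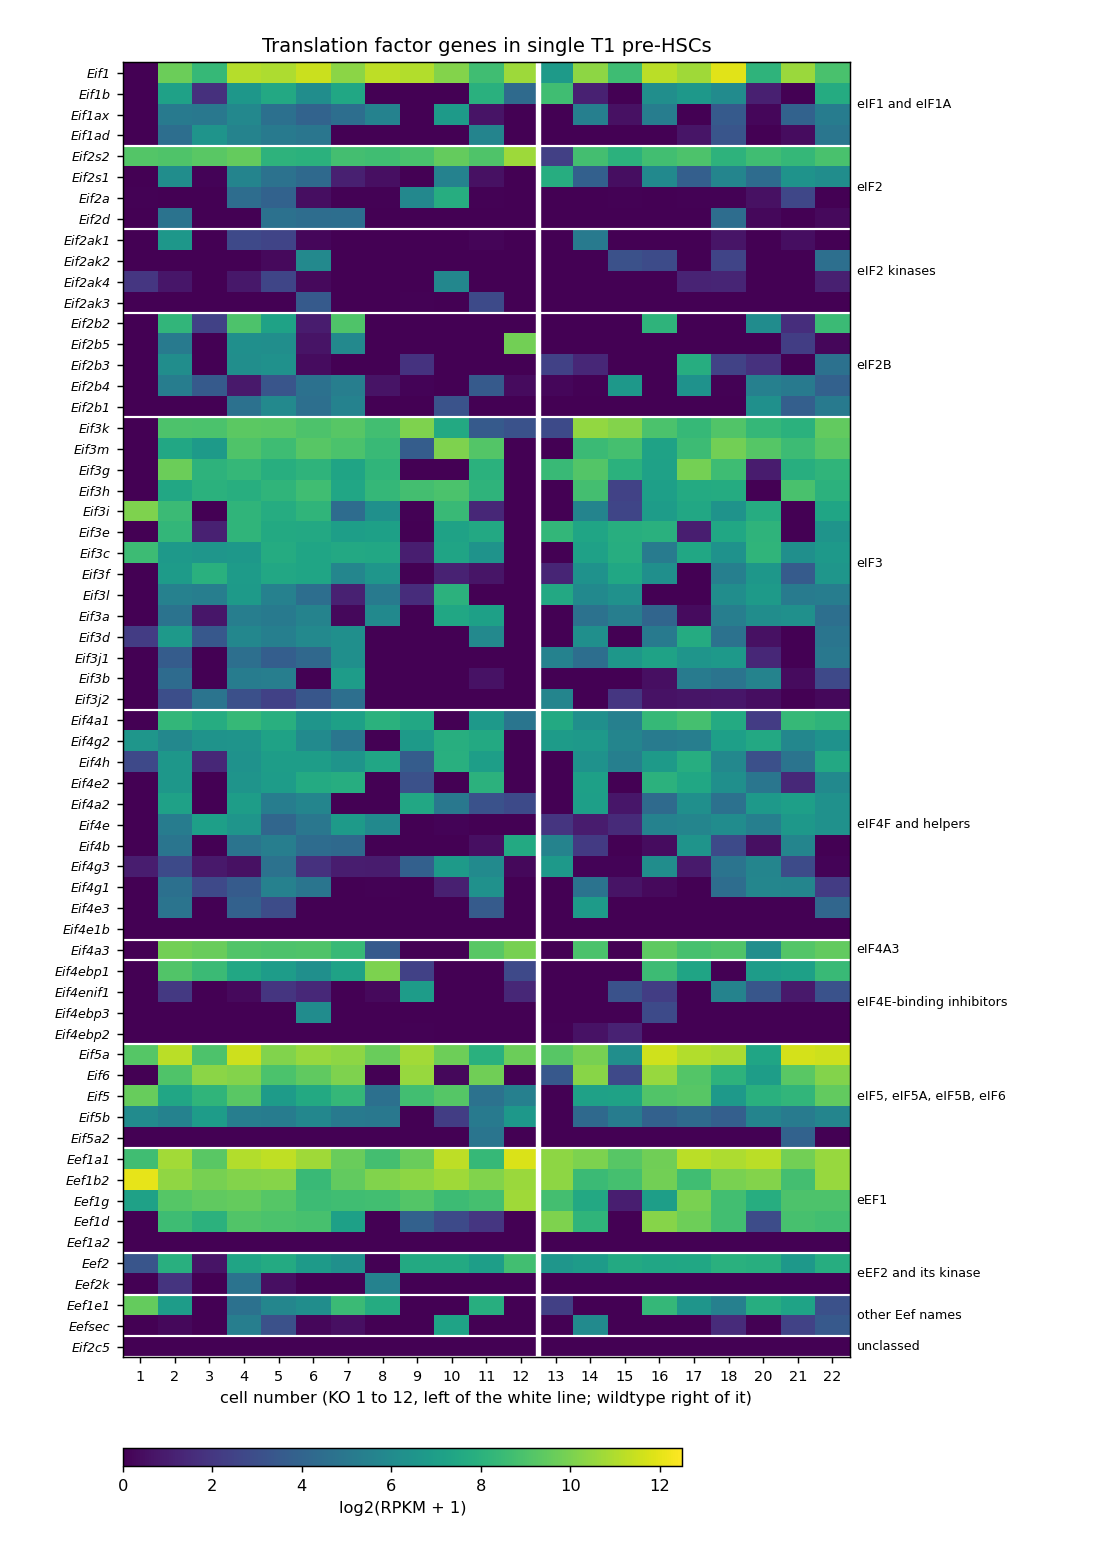
Level of each of the 62 translation factor genes (rows, grouped by complex) in each of the 21 cells (columns, KO cells then wildtype cells), as log2(RPKM + 1) on a colour scale. Eef1a1, Eef1b2, Eef1g, Eif5a, Eif1 and Eif2s2 are high in nearly every column, while eIF2 kinases and eIF2B are patchy, and KO cells 1 and 12 are empty over most of the eIF3 rows.

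The number of factors seen in a cell followed the number of genes seen in it. KO cells had 16 to 53 members detected (median 33.5) and wildtype cells 25 to 47 (median 39). Across the 21 cells, members detected and genes detected correlated at Pearson r = 0.94 and Spearman rho = 0.97; both are counts from the same libraries and share their depth. Within KO cells r was 0.94 and within wildtype cells 0.97. Detection was lowest in KO cells 1 (16 members), 12 (18) and 9 (25) and wildtype cell 13 (25), the cells with 1517, 1796, 1891 and 2067 genes. The module's share of each cell's summed RPKM was 0.865 to 1.59% in KO cells (median 1.22%) and 0.567 to 1.54% in wildtype cells (median 1.19%). A large share of it came from 4 genes. Eef1a1, Eif5a, Eif1 and Eef1b2 together made 26.9 to 56.8% of the module's RPKM in KO cells (median 49.6%), highest in cells 1 and 12, and 29.6 to 60.0% in wildtype cells (median 47.0%), highest in cell 18, so the groups overlapped throughout.

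**Figure D2:**
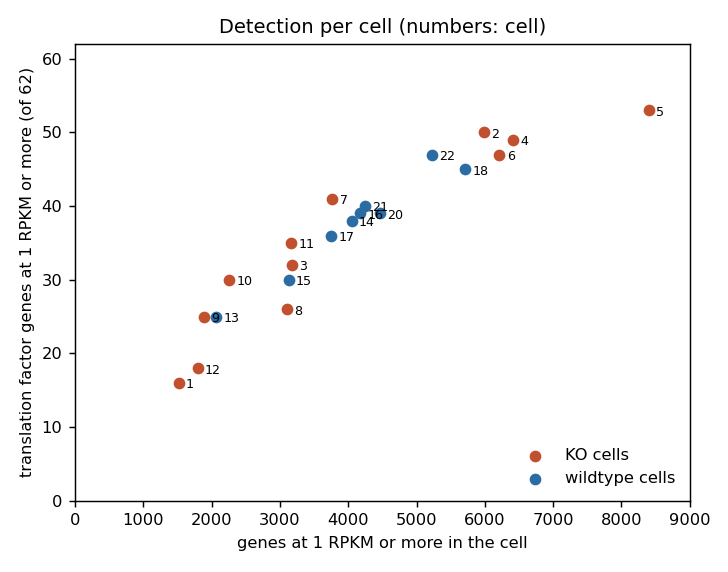
Members detected (vertical axis, at 1 RPKM or more, of 62) against all genes detected (horizontal axis) in each of 12 KO and 9 wildtype cells. In both groups the points rise together, from 16 members at 1517 genes to 53 members at 8408 genes.

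In the start-codon scanning group, Eif1, which holds the scanning ribosome open until a start codon is met, was the leading gene. Its level ran from 0 to 2888 RPKM in KO cells (median 1446) and from 113 to 3920 RPKM in wildtype cells (median 1306), and the difference was -0.23 (KO 9.48 ± 3.15, n = 12; wildtype 9.70 ± 1.66, n = 9). KO cell 1 was the lone cell in which it was listed at 0, and the remaining cells of both groups overlapped. Its paralogue Eif1b was lower than Eif1 in 19 of 21 cells, with group medians of 44.2 and 64.3 RPKM. Reads of such near copies could have been shared out between them, and the sources used here do not say how the counting treated them. Eif1ax, an eIF1A gene, differed by 0.83 (detected in 8 of 12 and 5 of 9 cells). Eif1ad, which encodes a protein with an eIF1A-like domain, was detected in 6 of 12 KO cells (interval 21.1 to 78.9%) and 2 of 9 wildtype cells (22.2%, 2.81 to 60.0%). Its KO cells ranged from 0 to 86.2 RPKM (median 11.1) and its wildtype cells from 0 to 29.3 RPKM (median 0). With a difference of 1.65 it was the largest higher value among the 43 compared members. It passed only through the KO cells, detected in KO cells 2 to 6 and 11 and no other KO cell.

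The subunits of eIF2, the carrier of the initiator tRNA, had differences of opposite sign. Eif2s2, the beta subunit, ran from 255 to 1634 RPKM in KO cells (median 528) and from 4.09 to 513 RPKM in wildtype cells (median 405). Its difference was 1.19 (KO 9.06 ± 0.70), and wildtype cell 13, at 4.09 RPKM, stood far below the next cell at 261. Without that cell the difference was 0.50. Eif2s1, the alpha subunit that the eIF2 kinases phosphorylate, ran from 0 to 69.2 RPKM in KO cells (median 0.792) and from 0.365 to 218 RPKM in wildtype cells (median 50.7). It was detected in 6 of 12 KO cells (interval 21.1 to 78.9%) and in 8 of 9 wildtype cells (51.8 to 99.7%). The difference was -2.56 (KO 2.38 ± 2.60; wildtype 4.94 ± 2.12), which was larger than the SD of the wildtype cells but not that of the KO cells. KO cells 2, 4, 5, 6 and 10 lay among the wildtype cells, at 18.6 RPKM or more, and the other 7 lay at 1.12 RPKM or less. Eif2a and Eif2d, factors that can deliver the initiator tRNA without eIF2, were detected in 4 KO cells and 1 wildtype cell each and were not compared.

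None of the 4 eIF2 kinases passed the filter: Eif2ak1, the heme-regulated kinase, was detected in 3 KO and 1 wildtype cells, Eif2ak2, the double-stranded RNA sensor, in 1 and 4, Eif2ak3, the endoplasmic reticulum stress kinase, in 2 and 0, and Eif2ak4, the sensor of uncharged tRNA, in 3 and 3. Eif2ak1, the highest of them by mean, ran from 0 to 98.4 RPKM in KO cells and from 0 to 32.9 RPKM in wildtype cells. The summed RPKM of the 4 kinases ran from 0 to 99.1 in KO cells (median 4.56) and from 0.0118 to 32.9 in wildtype cells (median 6.19). Of the 5 subunits of eIF2B, the factor that reloads eIF2 with GTP, Eif2b3 (-0.53) and Eif2b4 (-0.78) were compared. Eif2b1 and Eif2b2 were detected in 5 KO cells each and in 3 and 4 wildtype cells. Eif2b2, the leading subunit by mean, ran from 0 to 540 RPKM in KO cells (median 0.471) and from 0 to 368 RPKM in wildtype cells (median 0), with cells of both groups at either end. Eif2b5, the catalytic subunit, was detected in 5 of 12 KO cells (41.7%, 15.2 to 72.3%), among them KO cell 12 at 926 RPKM, and in 1 of 9 wildtype cells (11.1%, 0.281 to 48.2%). It had a difference of 2.54 but was not compared.

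Scaffold eIF3, which binds the small subunit and bridges it to eIF4F, was represented by 14 genes. KO cells had 1 to 14 of them detected (median 10) and wildtype cells 7 to 13 (median 11). All 14 were seen in KO cells 2, 4 and 5, whereas KO cell 12 had 1 (Eif3k, at 7.92 RPKM), KO cell 1 had 3 and KO cell 9 had 5. KO cell 12 was also the cell with the highest Eef1a1 (3599 RPKM), Eef1g (1685 RPKM) and Eif2s2 (1634 RPKM).

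The subunits were far from equal in level. Medians over the 21 cells were highest for Eif3k (502 RPKM), Eif3m (383), Eif3g (253) and Eif3h (231). Eif3c (109 RPKM), Eif3i (83.3), Eif3a (26.2) and Eif3b (0.288) lay lower. All 14 were listed at 0 in at least 1 cell and all but Eif3j2 exceeded 100 RPKM in another, so neighbours in this order overlap.

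**Figure D3:**
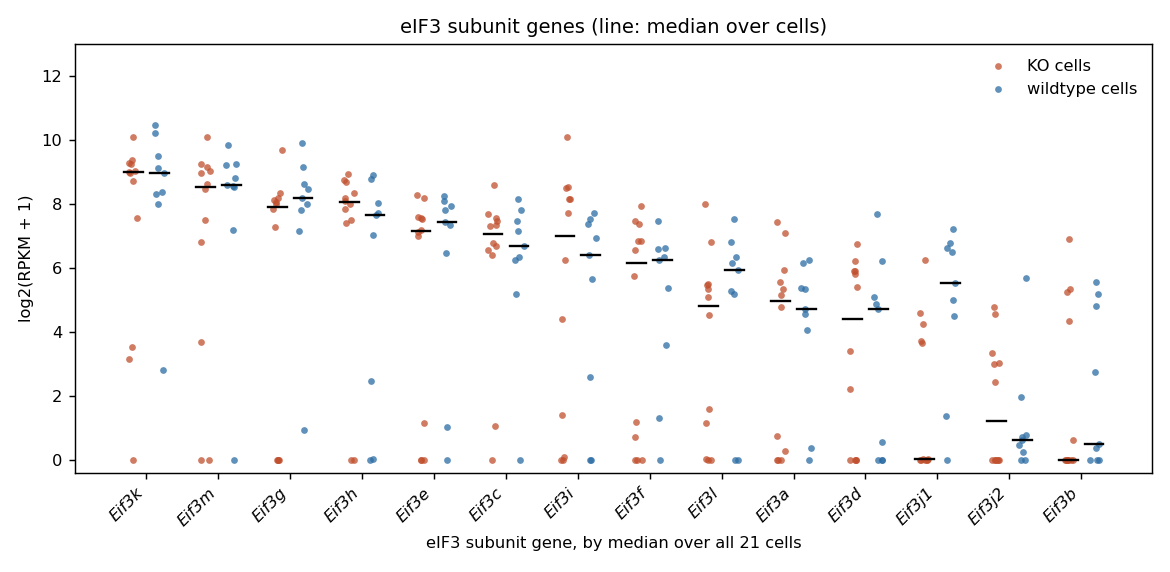
Level in log2(RPKM + 1) of the 14 eIF3 subunit genes, 1 point per cell (12 KO, 9 wildtype), with a line at the median of each group and genes ordered by the median over all 21 cells. Eif3k, Eif3m, Eif3g and Eif3h are the highest, Eif3b is the lowest, the group medians stand furthest apart in Eif3j1 (0.0199 and 45.5 RPKM), and in every subunit the groups overlap.

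Of the 13 eIF3 genes compared, 9 were lower in KO cells in sign, 4 of them by 1 or more, and 1 was higher by 1 or more, with a median of -0.61. Of all genes compared, 64.3% were lower in sign, 28.0% lower by 1 or more and 11.4% higher by 1 or more. Eif3j1, a loosely bound subunit at the decoding centre, had the largest difference of the module. Its KO cells ran from 0 to 74.5 RPKM (median 0.0199) and its wildtype cells from 0.00143 to 147 RPKM (median 45.5). It was detected in 5 of 12 KO cells (41.7%, 15.2 to 72.3%) and 8 of 9 wildtype cells (88.9%, 51.8 to 99.7%). The difference of -2.96 (KO 1.88 ± 2.39; wildtype 4.83 ± 2.53) was the only compared one in the module larger than both SDs, and the gene passed the filter only through the wildtype cells, a choice that favours a difference of this sign. KO cells 2, 4, 5, 6 and 7 lay at 11.6 RPKM or more, and wildtype cell 21, at 0.00143, lay with the low KO cells. Its near copy Eif3j2 was detected in 6 KO cells and 2 wildtype cells (0.59). Eif3j1 exceeded Eif3j2 by 0.11 ± 1.67 in KO cells and by 3.67 ± 2.66 in wildtype cells, and reads of the pair could have been split between them.

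Eif3g, an RNA-binding subunit, ran from 0 to 820 RPKM in KO cells (median 241) and from 0.930 to 959 in wildtype cells (median 293), with a difference of -2.13. The group medians were close: the difference came with KO cells 1, 9, 10 and 12, all listed at 0, and among cells with at least 3000 genes it was 0.71. Eif3k ran from 0 to 1100 RPKM in KO cells (median 507) and from 6.02 to 1420 in wildtype cells (median 502), with a difference of -1.09. Eif3l, which pairs with Eif3k at the edge of the complex, ran from 0 to 257 RPKM (median 27.4) and from 0 to 183 RPKM (median 60.0), with a difference of -1.18. Both were under 1 in size without any of several single cells. For Eif3k these were KO cells 1 (-0.42), 11 (-0.74) and 12 (-0.71) and wildtype cells 14 (-0.83), 15 (-0.86), 18 (-0.999) and 22 (-0.95), while it was -1.79 without wildtype cell 13. For Eif3l they were KO cells 1 (-0.85), 7 (-0.95), 9 (-0.99), 11 (-0.85) and 12 (-0.85) and wildtype cells 13 (-0.84), 15 (-0.98) and 20 (-0.93), while it was -1.78 without wildtype cell 16 or 17. Eif3h was the higher subunit, from 0 to 492 RPKM in KO cells (median 265) and from 0 to 478 in wildtype cells (median 200), with a difference of 1.19. Without wildtype cell 13 it was 0.49, without cell 15 it was 0.80 and without cell 20 it was 0.49, the 3 wildtype cells under 5 RPKM, and it was 1.81 without KO cell 1 or 12, both listed at 0. The remaining compared subunits lay between -0.98 (Eif3m) and 0.37 (Eif3i), and Eif3b, detected in 4 cells of each group, was not compared.

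Cap-dependent recruitment is the work of eIF4F, made of the cap-binding eIF4E, the scaffold eIF4G and the helicase eIF4A. Eif4a1 was the leading gene, at 0 to 326 RPKM in KO cells (median 158) and 3.62 to 450 RPKM in wildtype cells (median 201), with a difference of -0.90 (KO cells 1 and 10 were listed at 0). It exceeded its paralogue Eif4a2 in 17 of 21 cells and was below it in 3, with a mean gap of 2.33 ± 3.54 in log2. Eif4a2 itself ran from 0 to 178 RPKM in KO cells (median 19.3) and from 0 to 134 in wildtype cells (median 74.8), a difference of -1.17. Among cells with Xist under 1 RPKM (5 KO and 7 wildtype cells) that difference was 0.19. Leaving out any of KO cells 1, 3, 7 and 8 (each -0.84) or of wildtype cells 14 (-0.88), 17 (-0.99), 20 (-0.93), 21 (-0.88) and 22 (-0.97) brought it under 1 in size, and leaving out wildtype cell 13 gave -1.77.

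Among the scaffolds, Eif4g2, an eIF4G homologue that lacks the cap-binding protein's site and serves cap-independent initiation, was the most abundant. It exceeded Eif4g1 in 19 and Eif4g3 in 18 of 21 cells, with group medians of 86.5 and 81.4 RPKM against 3.48 and 3.67 RPKM for Eif4g1 and 1.73 and 6.25 RPKM for Eif4g3. Their differences were -0.82, -0.25 and -0.52. Of the cap-binding proteins, Eif4e ran from 0 to 132 RPKM in KO cells (median 23.2) and from 0.945 to 101 in wildtype cells (median 45.6), with a difference of -1.05. It was the smallest of the large differences and was under 1 in size without any of KO cells 1, 9, 11 or 12 (each -0.75), KO cell 10 (-0.76) or wildtype cells 16 (-0.92), 17 (-0.90), 18 (-0.85), 20 (-0.94), 21 (-0.78) and 22 (-0.82). Eif4e2, a competing cap-binding protein, was as often above Eif4e (10 cells) as below it (9 cells), and differed by -0.68. Eif4e3 was detected in 4 and 2 cells and was not compared. The helicase cofactors Eif4b (0.02) and Eif4h (-0.01) were level, and Eif4h was detected in 11 of 12 and 8 of 9 cells. Of the 9 eIF4F genes compared, 8 were lower in KO cells in sign, 2 of them by 1 or more, with a median of -0.68. Over all compared genes 64.3% were lower in sign and 28.0% by 1 or more, with a median of -0.36. Eif4a3, which has its main role in the exon junction complex, ran from 0 to 974 RPKM in KO cells (median 522) and from 0 to 733 in wildtype cells (median 495), a difference of -0.30.

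Among the proteins that keep eIF4E from eIF4G, Eif4ebp1, the mTORC1 target, was the most abundant. It was detected in 9 of 12 KO cells and 5 of 9 wildtype cells, at 0 to 1044 RPKM (median 97.1) and 0 to 377 RPKM (median 121), a difference of 0.80. Leaving out single cells gave values from 0.27 (without any of wildtype cells 13, 14, 15 and 18) to 1.34 (without wildtype cell 16), and medians over cells gave -0.35. Eif4ebp2, which was lower than Eif4ebp1 in 14 cells and higher in 4, reached 1 RPKM in wildtype cell 15 and in no other cell, and Eif4ebp3 in 1 cell of each group. Eif4enif1, the eIF4E transporter, was detected in 5 cells of each group and differed by -0.84.

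In the group that acts at start-codon recognition and subunit joining, Eif5, which activates GTP hydrolysis by eIF2, was detected in 12 of 12 and 8 of 9 cells (0.25), and Eif5b, the subunit-joining GTPase, in 11 and 8 (0.70). The Eif5b difference was 0.17 without wildtype cell 13, 1.15 without KO cell 9 and -0.47 among cells with Xist under 1 RPKM. Eif5a, the hypusine-bearing factor that helps ribosomes through stalling stretches, ran from 243 to 3030 RPKM in KO cells (median 985) and from 71.9 to 3304 in wildtype cells (median 1907). The mean difference was 0.03 although the medians stood apart: 4 of the 9 wildtype cells lay above 2000 RPKM and 2 lay below 200. Its paralogue Eif5a2 was lower in all 21 cells and detected in 1 cell of each group. Eif6, which keeps free large subunits from joining too soon, ran from 0 to 1531 RPKM in KO cells (median 619) and from 5.85 to 1496 in wildtype cells (median 578). Its difference of -1.30 came with 4 KO cells (1, 8, 10 and 12) under 1 RPKM. It was between -0.70 and -0.73 without any of those 4 cells, -0.99 without wildtype cell 14 and -0.96 without wildtype cell 16.

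Of all complexes, the eEF1 genes had the highest summed level, with a median of 3500 RPKM in KO cells and 3766 in wildtype cells. Eef1a1, the GTPase that brings aminoacyl-tRNA to the ribosome, ranked 112 of 14833 genes by mean log level. It ran from 334 to 3599 RPKM in KO cells (median 1241) and from 606 to 2367 RPKM in wildtype cells (median 1344), and its difference was -0.25 (KO 10.11 ± 1.17; wildtype 10.36 ± 0.69). Eef1a1 was above Eef1a2 and above Eef2 in all 21 cells. Its exchange factor is built from 3 other gene products, and their differences had different signs. Eef1b2, a catalytic subunit of exchange, ran from 359 to 4133 RPKM (median 1181) and from 369 to 1501 RPKM (median 914), a difference of 0.71 within either SD. Eef1g ran from 141 to 1685 RPKM in KO cells (median 512) and from 1.09 to 1006 in wildtype cells (median 422), a difference of 1.32, which was 0.49 without wildtype cell 15 (1.09 RPKM).

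Eef1d, the other exchange subunit, had the largest lower difference of the elongation factors, though within either SD. It ran from 0 to 543 RPKM in KO cells (median 74.4) and from 0 to 1205 in wildtype cells (median 424), with a difference of -2.55 (KO 4.94 ± 3.86; wildtype 7.49 ± 3.57). KO cells 1, 8 and 12 were listed at 0 and cells 9, 10 and 11 lay at 13.7 RPKM or less, while 7 of the 9 wildtype cells lay at 284 RPKM or more. Wildtype cells 15 (listed at 0) and 20 (6.47 RPKM) lay with the low KO cells, so the groups overlapped in both their lower and upper range. Among cells with at least 3000 genes its difference was -0.59 and among cells with Xist under 1 RPKM -0.71. Eef2, the translocase, was tight in wildtype cells, at 92.5 to 243 RPKM (median 174), and wide in KO cells, at 0 to 417 RPKM (median 142). Its difference of -1.44 was -0.97 without KO cell 3 (0.572 RPKM) and -0.91 without KO cell 8 (listed at 0). Its inhibitory kinase Eef2k was detected in 3 KO cells and no wildtype cell. Eef1e1, a member of the multi-synthetase complex, ran from 0 to 759 RPKM in KO cells (median 60.8) and from 0 to 324 RPKM in wildtype cells (median 42.5) and differed by 0.23, and Eefsec, the selenocysteine elongation factor, was detected in 3 and 4 cells and was not compared.

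**Figure D4:**
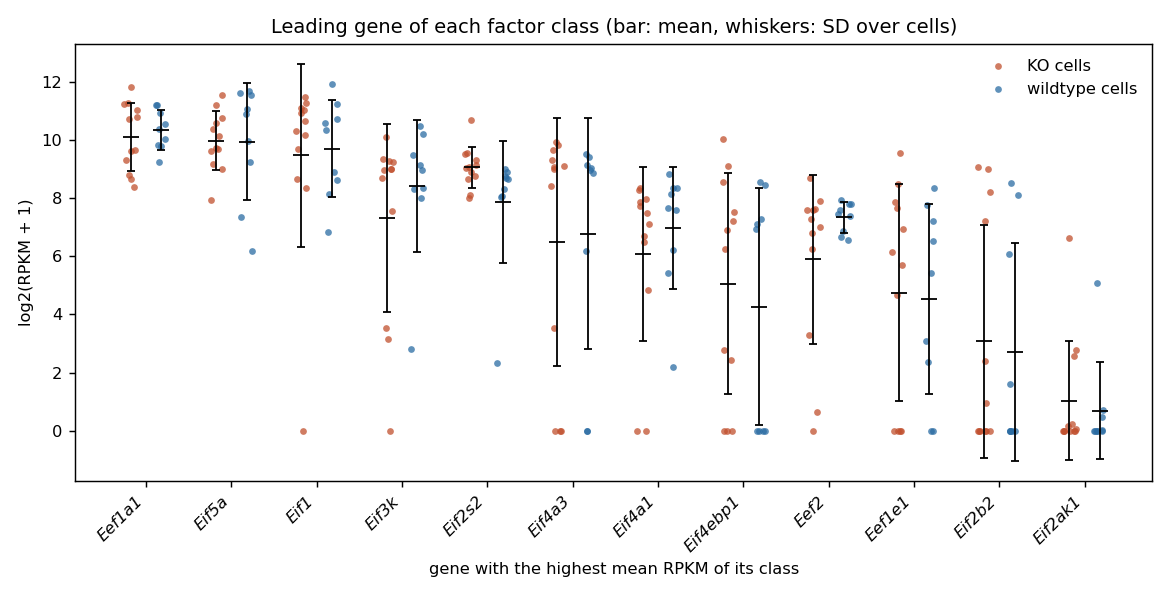
Level in log2(RPKM + 1) of the gene with the highest mean RPKM in each of the factor groups, 1 point per cell (12 KO, 9 wildtype), with the bar at the group mean and whiskers of 1 SD over cells. Eef1a1 is high in every cell, wildtype Eef2 is narrow (92.5 to 243 RPKM), and from Eif4a3 rightwards most genes have cells of either group at 0; the groups overlap in every gene.

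Set beside all genes, the module's genotype difference was close to the background. Of the 43 compared members, 10 (23.3%) were lower in KO cells by 1 or more, against 28.0% of the 3867 genes compared, and 4 (9.30%) were higher by 1 or more, against 11.4%. In sign, 28 of 43 were lower (65.1%), against 64.3% of all genes, and 29 of 43 lay within 1 of no difference. The median difference was -0.30 (quartiles -0.95 and 0.24), and that of all genes -0.36 (-1.11 and 0.35). Among the members that passed in both groups, 9 were lower and 3 higher by 1 or more, with a median of -0.28 against -0.38 for 2402 genes. The shares of those 2402 genes that were lower or higher by 1 or more are not given here. Only the medians can therefore be set beside each other. No compared member had groups without overlap, a pattern found in 0.0517% of all compared genes.

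Single cells moved these counts. The count of lower members was 5 without KO cell 1, 6 without KO cell 12 and 17 without wildtype cell 13, while the share of all genes moved to 23.4%, 25.7% and 36.5%. The count of higher members was 2 without wildtype cell 15 and 7 without KO cell 9, while the share of all genes was 9.3% and 14%. When every cell was shifted to an equal median over the compared genes, the median of all genes moved by 1.16, to 0.79, and that of the members to 0.86. The split then became 3 lower and 18 higher members, against 6.21% and 42.2% of all genes. That shift was made on the log values, so values listed at 0 moved with it. When every cell was instead scaled to an equal total, 10 members were lower and 4 higher, against 28.5% and 11.2% of all genes. The members' median was then -0.33 and that of all genes -0.38. The direction of the module thus differed between these settings, as did that of all genes. Eif3j1 and Eif2s1 were lower by 1 or more under all 10 alternative settings that can move a single gene's value, and without any single cell, though Eif3j1 was compared only through the wildtype cells. Each of the other 12 large differences was under 1 in size or of the other sign under at least 1 of these settings. Among cells with 2000 to 6000 genes (6 KO and 9 wildtype cells), Eif3j1 differed by -3.18, Eef1d by -2.74, Eif2s1 by -2.61, Eef2 by -2.43 and Eif3h by 2.43, but Eif3g by -0.72.

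**Figure D5:**
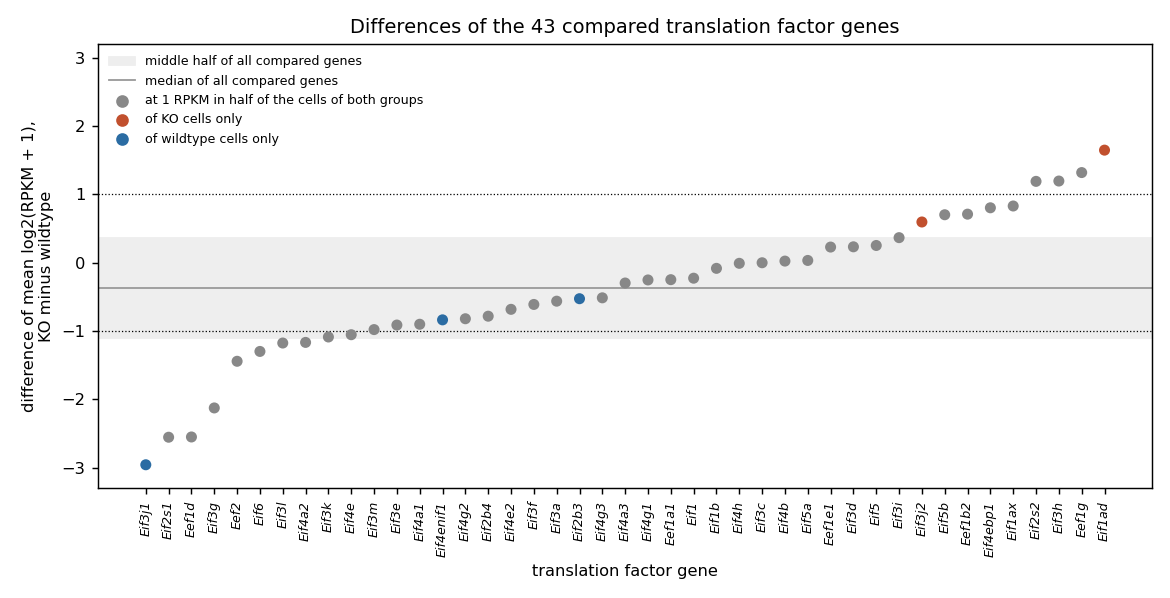
Difference in mean log2(RPKM + 1), KO minus wildtype, for the 43 compared members in order of size, with dotted lines at -1 and 1, a grey line at the median of all compared genes (-0.36) and a grey band between their quartiles (-1.11 and 0.35). Colours mark members that passed the filter through KO cells or wildtype cells only; the values run from -2.96 (Eif3j1) to 1.65 (Eif1ad), and 29 lie between the dotted lines.

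Neighbouring steps of protein synthesis were given by lists of other genes, counted in the same way. Of 70 such genes, 35 were compared. In KO cells 27 were lower in sign, 14 lower by 1 or more and 2 higher by 1 or more, where all compared genes had 64.3%, 28.0% and 11.4%, and the median was -0.58. The filter bears on these counts: 11 of the 35 passed only through wildtype cells, which favours a lower value in KO cells, and they gave 8 of the 14. Among the 19 that passed in both groups, 6 were lower and 1 higher by 1 or more, counts for which no share of all such genes is given. Their median was -0.38, the same as that of all genes that passed in both groups (-0.38).

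The counts of each list below stand beside 28.0% of all compared genes lower by 1 or more and 11.4% higher. Aminoacyl-tRNA synthetases, which charge tRNAs, had 14 compared, with a median of -0.56 and 5 lower by 1 or more. Of these 5, 4 passed only through wildtype cells, threonyl-tRNA synthetase Tars (-2.21; 3 of 12 and 6 of 9 cells) among them. Asparaginyl-tRNA synthetase Nars (-3.40; 6 of 12 and 9 of 9 cells) passed in both groups. Glutaminyl-tRNA synthetase Qars, named after its values were seen, had a difference of 3.31 but was detected in 5 of 12 and 1 of 9 cells and so was not compared. Of the integrated stress response, which follows eIF2 phosphorylation, 3 of 7 genes were compared. These 3 were lower by 1 or more, too few to be read as a share. Atf4 of that list was detected in 5 of 12 and 4 of 9 cells and was not compared. Ppp1r15a (-1.26), a phosphatase subunit that reverses that phosphorylation, and Atf3 (-1.16) passed in both groups. Ddit3 (-1.26), a stress-induced transcription factor, passed only through wildtype cells. Termination, recycling and poly(A)-binding genes had 8 compared. The release factor Gspt1 was lower (-1.61; passed only through wildtype cells), and Paip2, an inhibitor of poly(A)-binding protein, was higher (1.14; passed in both). Of the modifiers of translation factors 4 were compared. Cdc123, which assembles eIF2, was higher (3.03; 10 of 12 and 4 of 9 cells, passed only through KO cells), and Dph3, needed for the diphthamide of eEF2, was lower (-1.92; passed in both). In mTORC1 and eIF4E signalling 3 of 13 were compared, all passing in both groups, Rheb at -1.18 and Rps6kb1 at -0.90 among them. The 3 mitochondrial translation factors compared were lower by 1 or more, again too few to be read as a share. Mtif3 (-1.13) passed in both groups, and Tsfm (-1.79) and Tufm only through wildtype cells. Mrrf of that list, also named after its values were seen, differed by 1.86 but was detected in 5 KO cells and no wildtype cell and was not compared.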

How the data were processed

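Gene expression was measured in 22 single T1 pre-HSC libraries. The values are RPKM deposited by the authors, 1 column per cell; Cufflinks 2.1.0 and build mm10 are named, per the submitters' processing notes. The sources used here do not give other steps, such as how reads were filtered or shared between near-identical genes. Read depth is unknown, so no count model was used. Members were matched by symbol, grouped by complex, and compared on log2(RPKM + 1) with a filter of 1 RPKM in 50% or more of the KO or of the wildtype cells, using Python 3.11.15, numpy 2.4.6, pandas 2.3.3 and scipy 1.17.1. Cells are not replicates, and wildtype cell 19, whose rows are out of step, was left out. The calculations were tested on simulated data. Values per cell were given for the leading gene of each complex and up to 8 compared members with the largest differences in each direction. Paralogues were set side by side, and at least 2 genes were named from each other list. The members and lists were chosen with earlier results of these data known. Alternatives covered the pseudocount, scaling, averaging, filter, cells by genes detected, cell 19, and each cell left out. An alternative with only cells of Xist under 1 RPKM was chosen after seeing the data. Promoter sequences were those of RefSeq (GRCm38.p6), whose start stood at the annotated gene start for 74.7% of plus-strand genes with 1 start.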

Additional observations from a re-analysis of the deposited data

Results flagged for a closer look

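In 45 member quantities, the lowest or highest of the 9 wildtype cells was compared with its nearest neighbour. By Dixon's ratio, 9 quantities had a cell that stood apart. The limit used gives about 1 in 20 by chance only for independent values with a normal spread. These quantities share the same 9 cells and several include cells listed at 0. That rate therefore cannot be applied, and the count of 9 is a description. Wildtype cell 13, with 2067 genes detected, was the cell concerned in 7 of the 9 quantities. It was the lowest for Eif2s2 (4.09 RPKM, the next cell at 261), Eif3k (6.02, next 255), Eif3c (0, next 35.5), Eif3m (0, next 144), Eif5 (0, next 106) and Eif5b (0, next 12.6), and the highest for Eif3j2 (50.5, next 2.95). Wildtype cell 15 was the lowest for Eef1g (1.09 RPKM, next 129), and wildtype cell 20 for Eif3g (0.930 RPKM, next 143).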

How the results depend on the processing

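In what follows, 43 members were compared unless another number is given, and bracketed percentages are shares of all genes compared under the same setting. The count of members lower in KO cells by 1 or more was 10 (28.0%) in the main setting. It was 19 with a pseudocount of 0.1 (40.6%), 4 with a pseudocount of 10 (11%) and 3 at an equal median (6.21%). From the ratio of mean RPKM it was 4 (16.5%). It was 6 of 51 in cells with at least 3000 genes (13.9%) and 6 of 47 in cells with Xist under 1 RPKM (20.5%). The latter were 5 KO and 7 wildtype cells. The count of members higher by 1 or more was 4 (11.4%) in the main setting. It was 2 with a pseudocount of 10 (4.03%), 18 at an equal median (42.2%) and 2 from medians over cells (17.6%). From the ratio of mean RPKM it was 2 (15.3%), and with no filter 7 of 62 (5.85%). It was 13 of 51 in cells with at least 3000 genes (26.8%) and 9 of 47 in cells with Xist under 1 RPKM (26.8%). Leaving out each cell in turn gave 5 to 17 lower members, 2 to 7 higher members and a median between -0.71 and -0.10. Of all genes compared, 23.4 to 37.8% were then lower by 1 or more and 7.91 to 14.8% higher. The cause of these changes was not tested. Differences changed sign for Eif3k at an equal median (0.071), from medians over cells (0.012) and with Xist under 1 RPKM (0.013), for Eif4e at an equal median (0.10) and in cells with at least 3000 genes (0.32), for Eif6 from medians over cells (0.083), from the ratio of mean RPKM (0.061) and in cells with at least 3000 genes (0.073), for Eif3g in cells with at least 3000 genes (0.71), for Eif4a2 (0.19) and Eif5b (-0.47) with Xist under 1 RPKM and for Eif4ebp1 from medians over cells (-0.35). Over these settings, 12 of 216 gene values changed sign. The 216 include values under the changed filters, which leave a gene's difference as it was and cannot change its sign. Only 10 settings can move a single gene's value. Pyrimidine runs within 20 bases of the start were found in 22 members. No paired analysis was possible because KO and wildtype cells share no replicate number and no test was made. With 1 sample per genotype and unknown depth, a listed 0 cannot be told apart from a missed transcript.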
